A study of Arabidopsis thaliana with 42 samples.

Results

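The response of wild-type Arabidopsis thaliana seedlings to 30 min of dexamethasone (DEX) was measured on 12 of the 42 ATH1 arrays of a study built around 2 transgenic lines. The 12 arrays were chosen by their labels as all wild-type arrays at 0 and 30 min, with 3 per time on each of 2 growing days. The question was what DEX and its handling do to transcripts in plants without a fusion protein, and which of those changes were seen again on a second day. The seedlings were Columbia, aged 7 days, grown in flasks of Murashige and Skoog medium with sucrose, and frozen whole. DEX was given at 50 µM. The 0 min flasks received none, and every time point had flasks of its own, so each array stands for a separate flask. Wild-type replicates 1 to 3 were grown on day 1 beside the 35S::GR-REV line, which carries the homeodomain-leucine zipper factor REVOLUTA fused to the hormone-binding domain of the glucocorticoid receptor. Replicates 4 to 6 were grown on day 2 beside the 35S::KAN1-GR line, which carries the GARP factor KANADI1 fused to the same domain. In both lines the 35S promoter drives the fusion in most cell types. No flask was kept for 30 min without DEX, so DEX, its solvent, the handling and the passage of time cannot be told apart. The rise or fall of a transcript in whole seedlings also cannot be told apart from more or fewer cells of the type that holds it.

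Dexamethasone is a synthetic glucocorticoid of animals, and plants have no glucocorticoid receptor of their own, which is why wild type serves as the control of such experiments. Several plant gene families respond within minutes to a hormone or to disturbance. Type-A response regulators (ARRs) are transcribed directly by the cytokinin relay and dampen it. Touch, calcium and wounding raise calmodulin-like, WRKY and zinc-finger genes. Lack of oxygen, as in submerged tissue, raises genes of fermentation. Root hairs grow under basic helix-loop-helix (bHLH) factors such as RSL4, which raise genes of wall loosening and tip growth.

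All values are on the log2 scale and count from the untreated wild type: 0 stands for the median of its 6 arrays, and a difference of 1 is a 2-fold difference. Changes are 30 min less 0 min within a day, and the change called the mean of both days averages the 2 days. Errors are standard errors (SE), p-values are limma p-values adjusted by the Benjamini-Hochberg method over 16129 tested probe sets, and 0.05 was the threshold. Precision is limited by the number of arrays, and the median SE was 0.106 for the mean of both days and 0.150 for a single day. Pearson's r of centred values between arrays of a group ran from 0.161 upwards. The lowest was between arrays of day 2 at 30 min, where replicate 6 resembled replicate 6 at 0 min (r = 0.694) more than its own group. Wild type showed no change in the genes whose products the lines carry that passed the threshold: REV changed by 0.03 ± 0.08 (adjusted p = 0.926) and KAN1 by 0.01 ± 0.15 (adjusted p = 0.992).

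In the mean of both days 624 probe sets (3.87% of those tested) passed the threshold, 326 higher (2.02%) and 298 lower (1.85%) at 30 min. The p-values of this mean rest on the spread among flasks of a group. They do not measure whether a change repeats between days. An additive model of day and time, whose spread takes in the differences between days, gave 91. The days differed. On day 1, 1601 probe sets passed (9.93%), 773 higher (4.79%) and 828 lower (5.13%). On day 2, 97 passed (0.601%), 51 higher (0.316%) and 46 lower (0.285%). In 557 probe sets (3.45%) the change itself differed between the days. Over all tested probe sets 47.3% moved with the same sign on both days, and the changes of the days had a Pearson's r of 0.0447 across probe sets, which are not independent replicates. The 2 days share no arrays. Of the 624, 440 had passed on day 1 alone, 45 on day 2 alone and 118 on neither, and 172 differed between the days.

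Only 21 probe sets (0.130%) passed on each day with the same sign, 11 higher and 10 lower. They were 1.31% of the day 1 calls and 21.6% of the day 2 calls, and 3 further probe sets passed on both days with opposite signs. The 11 that rose were probe sets of ARR7, ARR6, CRF2, KMD3, DJC66, MYB4, CYP81F2, BEE1, SAUR14, AT3G44630 and AT3G44820. The 10 that fell included RSL4, LRL3, EXPA7, MRH6 and RAV2. In 20 of the 21 the 3 arrays at 30 min lay wholly outside the 3 at 0 min on both days, and the exception was LRL3 on day 2. Over all tested probe sets, 445 (2.76%) were apart in that way on both days in the same direction. Of the 21, only ARR7 also differed between days in the size of its change.

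**Figure D1:**
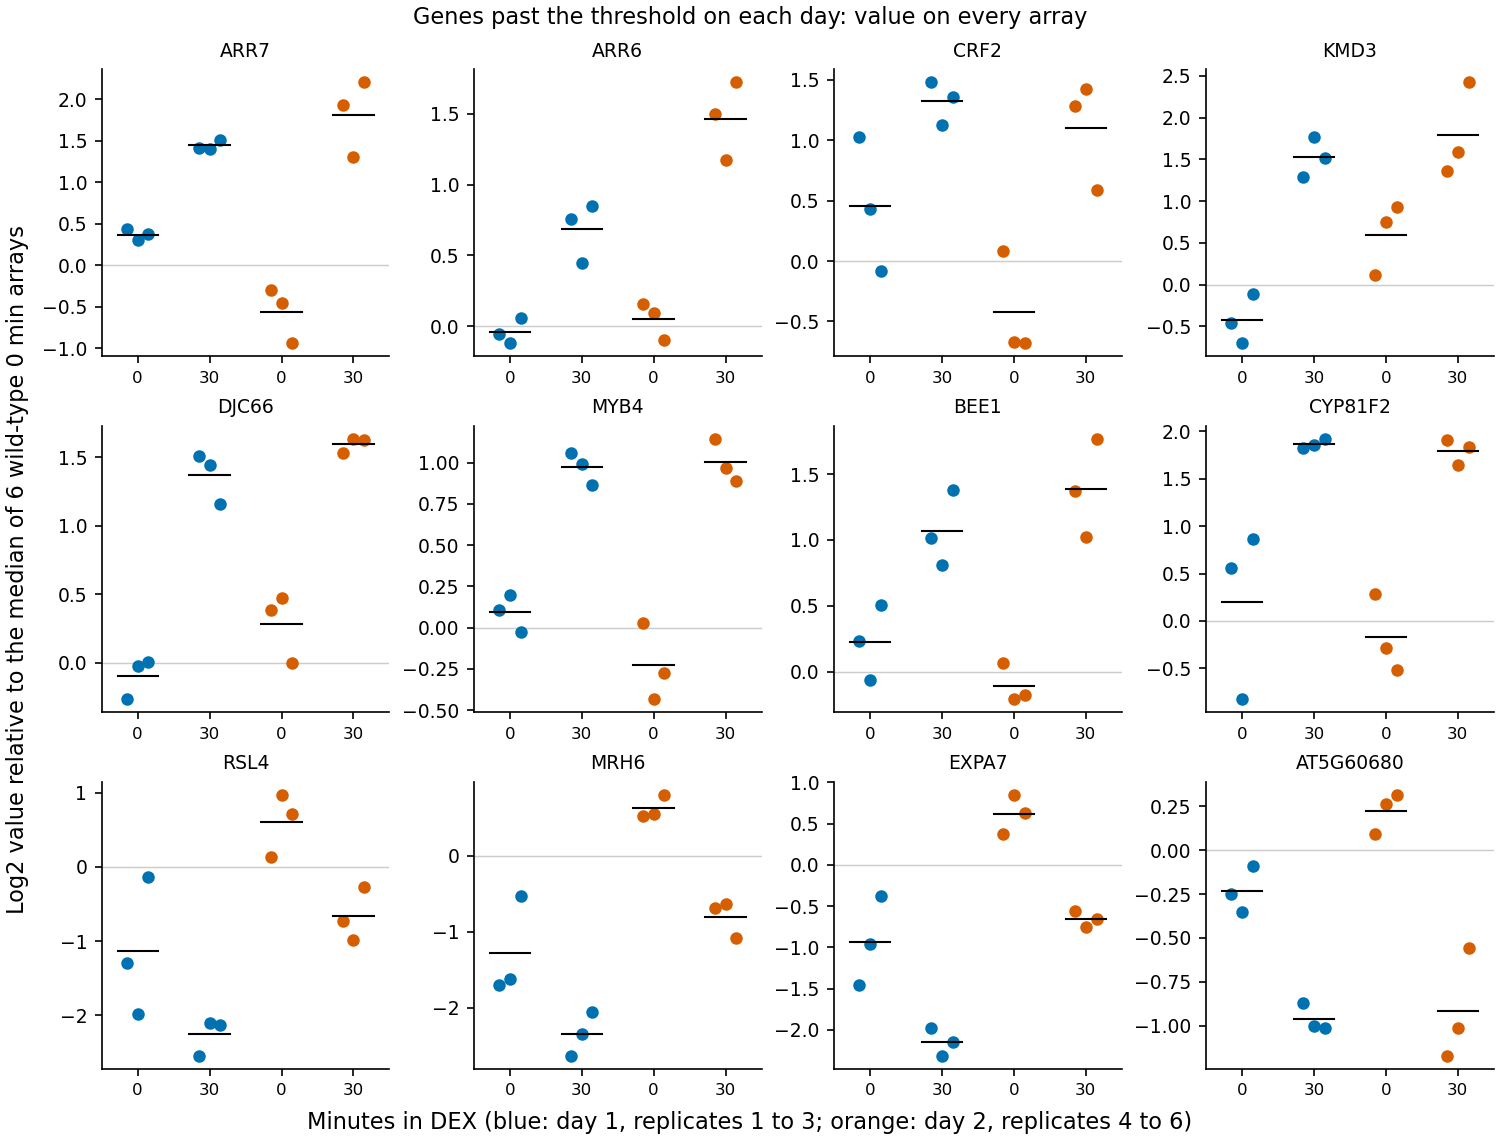
Log2 value from the untreated wild-type median (vertical axis) at 0 and 30 min of DEX (horizontal axis) for 12 genes whose change passed on each day with the same sign. Points are single arrays, bars are means of 3 arrays, blue is day 1 and orange is day 2; ARR7 lies between 1.31 and 2.2 in all 6 arrays at 30 min, and EXPA7 falls on both days from different starting levels.

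ARR7 (AT1G19050) rose on both days. It encodes a type-A response regulator and serves as a standard reporter of cytokinin. Its 0 min values were 0.44, 0.30 and 0.37 on day 1 and -0.30, -0.46 and -0.94 on day 2. At 30 min they were 1.42, 1.40 and 1.51 on day 1 and 1.93, 1.31 and 2.2 on day 2. All 6 treated arrays lay above all 6 untreated ones. ARR7 rose by 1.07 ± 0.22 on day 1 (adjusted p = 0.0015) and by 2.38 ± 0.22 on day 2 (adjusted p = 4.32e-08), a mean 3.31-fold rise (adjusted p = 7.47e-09). The day 2 rise was the larger, by 1.31 ± 0.31 (adjusted p = 0.0133), and the day 2 arrays also started lower. At 60 min the values were 0.23, 0.66 and 0.68 on day 1 and -0.69, -0.69 and -0.09 on day 2, close to where they began.

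ARR6 (AT5G62920), a close relative with the same role, showed the same course. It stood between -0.12 and 0.16 in the 6 arrays at 0 min. It reached 0.76, 0.45 and 0.85 on day 1 and 1.50, 1.17 and 1.72 on day 2, and no array at 30 min overlapped those at 0 min. The rise was 0.72 ± 0.20 on day 1 (adjusted p = 0.0164) and 1.41 on day 2 (adjusted p = 5.82e-05). Both calls of ARR6 held in 9 of the 12 fits that each lacked 1 array. By 60 min ARR6 lay between -0.80 and 0.11.

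ARR15 (AT1G74890), another type-A gene, read 2.40, 1.90 and 2.42 at 30 min on day 2, against -0.01, -0.72 and -0.19 before. That was a rise of 2.55 ± 0.27 (adjusted p = 2.56e-07). On day 1 it went from 0.83, 0.54 and 0.01 to 1.07, 0.67 and 1.18, with overlapping groups, and the change of 0.52 did not pass (adjusted p = 0.229). The difference between the days passed (adjusted p = 0.00181). ARR5 (AT3G48100) showed the opposite order of calls, with a rise of 0.89 on day 1 (adjusted p = 0.0165) and a change of 0.69 on day 2 that did not pass (adjusted p = 0.249). For ARR5 the difference between the days did not pass either (adjusted p = 0.805).

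The cytokinin response list holds the 9 type-A genes measured, and all 9 were tested. In the mean of both days 4 rose, ARR5, ARR6, ARR7 and ARR15, and none fell, beside 2.02% higher and 1.85% lower over all tested probe sets. Their number stayed at 4 whichever of the 12 arrays was left out. The list's median change was 0.76, against 0.00 over all tested probe sets. The other 5 did not pass, from ARR16 at 0.76 ± 0.27 (adjusted p = 0.11) down to ARR3 at -0.46 ± 0.20 (adjusted p = 0.221). The medians were 0.63 on day 1 and 0.55 on day 2.

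Further along the same pathway, CRF2 (AT4G23750) encodes a cytokinin response factor of the AP2/ERF family. It read 1.02, 0.43 and -0.08 at 0 min and 1.48, 1.12 and 1.36 at 30 min on day 1. On day 2 it went from 0.08, -0.67 and -0.68 to 1.28, 1.42 and 0.59. The groups did not overlap on either day, and CRF2 rose by 0.86 ± 0.25 (adjusted p = 0.0237) and 1.52 (adjusted p = 0.000834). Both calls of CRF2 held in 8 of the 12 fits that each lacked 1 array. They did not both hold after quantile normalisation or with the 12 wild-type arrays alone. Its relative CRF5 rose on day 2, from between -0.16 and 0.02 to between 0.71 and 0.81 (adjusted p = 0.000845), and less on day 1, by 0.14, which did not pass. CKX3, a cytokinin oxidase that breaks the hormone down, rose by 0.75 ± 0.20 in the mean of both days (adjusted p = 0.0254). These were the 3 of 16 tested genes of cytokinin signalling and turnover that passed in the mean of both days, all upward, with a list median of 0.23. That list was chosen after the values had been seen. The receptors AHK2, AHK3 and AHK4 and the type-B factors ARR2, ARR10 and ARR12 did not pass on either day.

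**Figure D2:**
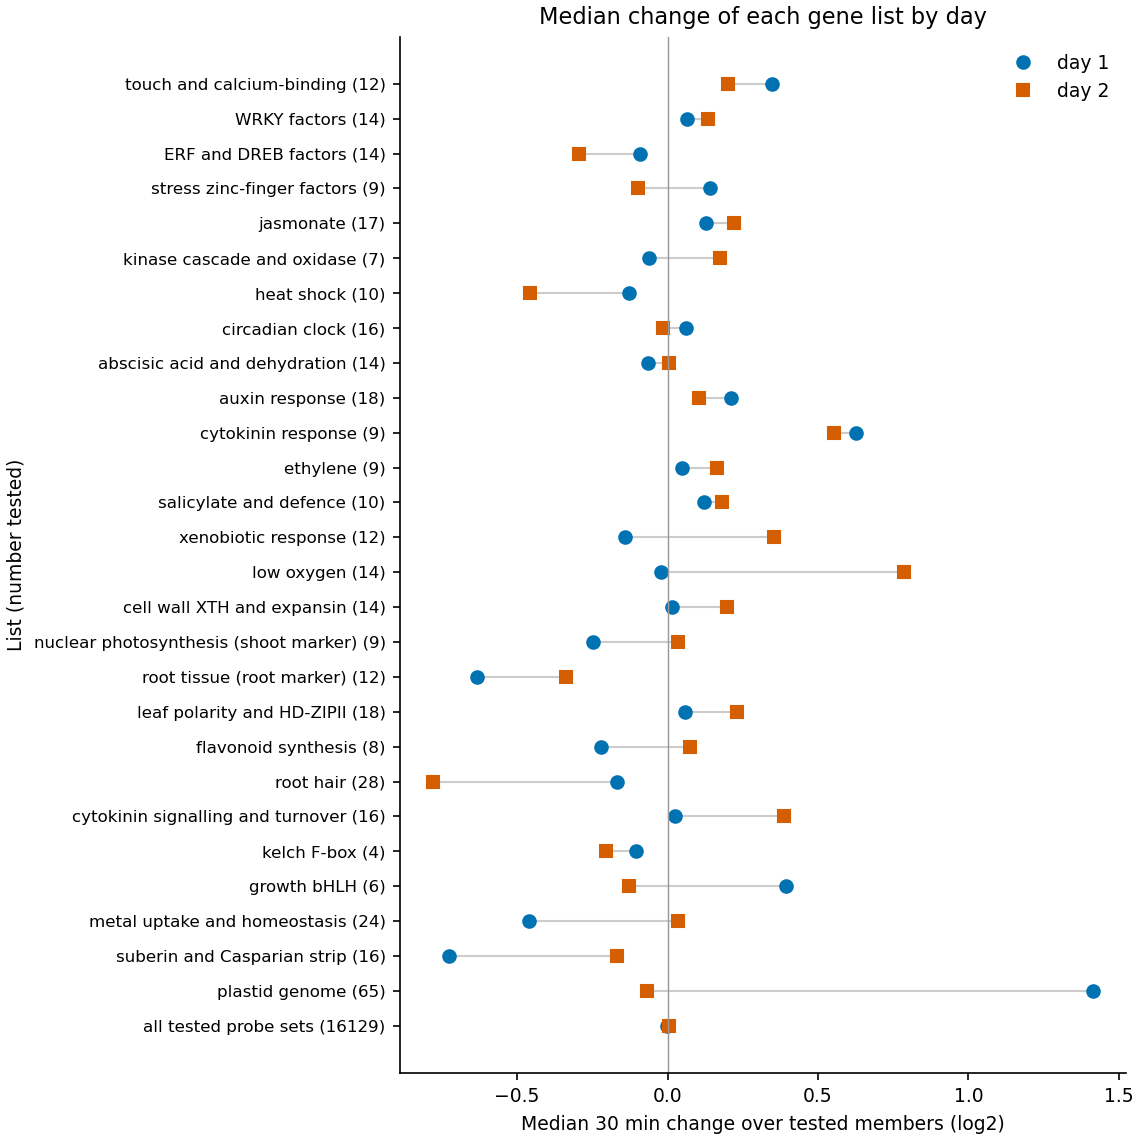
Median log2 change at 30 min (horizontal axis) of the tested members of each gene list (vertical axis), on day 1 (circles) and day 2 (squares), with all tested probe sets for reference. The cytokinin response list lies at 0.63 and 0.55, while the plastid genome (1.41 and -0.07) and low oxygen (-0.02 and 0.79) lists lie apart between the days.

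KMD3 (AT2G44130) encodes a kelch-repeat F-box protein of the KISS ME DEADLY family, which targets type-B response regulators and phenylalanine ammonia-lyase for breakdown. It stood at -0.46, -0.70 and -0.11 on day 1 and 0.11, 0.75 and 0.93 on day 2 before DEX. At 30 min it read 1.29, 1.77 and 1.51 on day 1 and 1.36, 1.59 and 2.42 on day 2, with no overlap between times on either day. The rise was 1.95 ± 0.24 on day 1 (adjusted p = 3.42e-06) and 1.19 on day 2 (adjusted p = 0.013), and at 60 min the arrays lay between 2.39 and 2.59 on day 1 and between 2.74 and 3.36 on day 2, within each day above those at 30 min. KMD3 was the only one of the 4 family members that passed, and KMD1, KMD2 and KMD4 changed by between -0.85 and 0.02 on the single days.

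DJC66 (AT3G13310), a DnaJ-domain protein, was with AT1G19020 and ZAT10 among the 3 large rises that were most alike between the days. Of the 3, only DJC66 passed on day 2. It went from -0.27, -0.03 and 0.00 to 1.51, 1.44 and 1.16 on day 1. On day 2 it went from 0.38, 0.47 and 0.00 to 1.53, 1.64 and 1.63. It rose 2.76-fold on day 1 (1.47 ± 0.16, adjusted p = 5.72e-07) and 2.49-fold on day 2 (1.32, adjusted p = 7.75e-06), and the groups were far apart on both days. MYB4 (AT4G38620), a repressor of phenylpropanoid synthesis, lay between -0.43 and 0.20 in all arrays at 0 min. It lay between 0.87 and 1.14 in all 6 at 30 min. MYB4 rose by 0.88 ± 0.13 on day 1 (adjusted p = 2.11e-05) and 1.23 on day 2 (adjusted p = 2.29e-07), and at 60 min it lay between 0.97 and 1.45.

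BEE1 (AT1G18400), a bHLH gene first described as an early target of brassinosteroid, went from 0.23, -0.06 and 0.50 to 1.02, 0.81 and 1.38 on day 1. On day 2 it went from 0.06, -0.21 and -0.18 to 1.37, 1.02 and 1.77. The rises were 0.84 ± 0.24 (adjusted p = 0.0206) and 1.50 (adjusted p = 0.000566). Of the other growth bHLH genes tested, HBI1 rose on day 1 by 0.65, and none of BEE2, BEE3, IBH1 and PAR1 passed.

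CYP81F2 (AT5G57220), a cytochrome P450 of indole glucosinolate synthesis, had the largest mean rise of the 21, 3.53-fold (1.82 ± 0.33, adjusted p = 0.00118). Its 0 min values were scattered, at 0.56, -0.83 and 0.87 on day 1 and 0.29, -0.29 and -0.52 on day 2. Its 30 min values were tight, from 1.83 to 1.92 on day 1 and from 1.64 to 1.91 on day 2, and lay above all of them. Both days passed narrowly (adjusted p = 0.0213 and 0.0413), and each of the 12 arrays was left out in turn, and both calls stood in 3 of those fits. SAUR14 (AT4G38840), an auxin-responsive gene, rose by 0.43 ± 0.11 and 0.47 on the 2 days, from between 0.12 and 0.20 to between 0.51 and 0.74 on day 1 and from between -0.37 and -0.12 to between 0.18 and 0.33 on day 2. Its 2 calls together also held in 3 of the 12 fits. AT3G44630 and AT3G44820 rose by 0.54 ± 0.10 and 0.42 ± 0.06 in the mean of both days.

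Among the falls on both days were genes of root hairs. RSL4 (AT1G27740), the bHLH factor that sets how long a hair grows, stood at -1.29, -1.98 and -0.14 on day 1 and 0.14, 0.97 and 0.71 on day 2 before DEX. At 30 min it stood at -2.54, -2.11 and -2.12 on day 1 and -0.74, -0.98 and -0.27 on day 2. Within each day the treated arrays were all lower than the untreated ones, though the untreated arrays of day 1 started below the untreated arrays of day 2. RSL4 fell by 1.12 ± 0.30 on the log2 scale on day 1 (adjusted p = 0.0145) and by 1.27 on day 2 (adjusted p = 0.0351), a mean 2.29-fold fall. Both calls of RSL4 held in 6 of the 12 fits that each lacked 1 array.

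EXPA7 (AT1G12560), an expansin made in root hair cells, went from -1.46, -0.95 and -0.38 to -1.98, -2.31 and -2.15 on day 1. The day 2 values went from 0.38, 0.85 and 0.63 to -0.56, -0.76 and -0.65. It fell by 1.22 ± 0.29 (adjusted p = 0.00676) and by 1.27 (adjusted p = 0.0315), without overlap on either day, and both calls held in 7 of the 12 fits. MRH6 (AT2G03720), named for the morphogenesis of root hairs, fell by 1.06 ± 0.29 (adjusted p = 0.0161) and by 1.43 (adjusted p = 0.0112), and both calls held in 9 of the 12 fits. Its treated arrays lay between -2.63 and -2.05 on day 1 and between -1.09 and -0.63 on day 2, and its untreated ones between -1.70 and -0.53 and between 0.53 and 0.80. LRL3 (AT5G58010), a second bHLH factor of hair growth, fell by 0.84 ± 0.27 (adjusted p = 0.0444) and by 1.12 (adjusted p = 0.0415). On day 2 its replicate 6 at 30 min, 0.51, was above replicate 4 at 0 min, 0.31, and both calls held in 2 of the 12 fits. RSL4, EXPA7, MRH6 and LRL3 all lost the call on at least 1 day when the spread was let follow the mean.

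Of 28 tested root hair genes, 7 fell in the mean of both days and none rose, beside 1.85% of all tested probe sets. They were RSL4, LRL3, EXPA7, MRH6, the expansin EXPA18, the wall enzyme XTH13 and SCN1, a regulator of where hairs form. This list was chosen after the values had been seen, and 4 of the 7 are the each-day genes above, so its counts are descriptions. The count in the mean was 3 with a spread that followed the mean and 16 after quantile normalisation. The list's median change was -0.39, with -0.17 on day 1 and -0.78 on day 2. On day 1, 4 of the 28 fell, and none without untreated replicate 3. On day 2, 5 fell, GL2 being the additional gene, none without untreated replicate 6, 1 with a spread that followed the mean and 19 after quantile normalisation. Other hair genes did not move alike between the days: LRX1, a wall protein of hairs, changed by 0.67 on day 1 and -1.43 on day 2, neither of which passed, and the difference did (adjusted p = 0.0278). The median value of the 28 genes was -1.01, -0.92 and -0.25 in the untreated arrays of day 1 and between -1.10 and -0.80 in the treated ones, so the 2 groups overlapped. On day 2 it was 0.37, 0.61 and 0.38 before and between -0.37 and -0.26 after, with no overlap.

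A list of markers of root tissue, which shares EXPA7, MRH6, LRX1, COBL9, RHD6 and PRP3 with the hair list, had 4 of 12 tested members lower and none higher in the mean of both days, with 5 lower on day 1 (median -0.63) and 2 on day 2 (median -0.34). The other members that fell were CASP1 (by 0.55, adjusted p = 0.00741) and CASP2 (by 0.61, adjusted p = 0.00988), scaffold proteins of the Casparian strip. The 4 were lower whichever of the 12 arrays was left out. The endodermal factors SCR and SHR changed by between -0.49 and 0.14 on single days and did not pass. Of 9 tested nuclear photosynthesis genes, markers of the shoot, none passed in the mean of both days, and their median was -0.08. On day 1 LHCB3 and LHCB6 fell, 8 of the 9 changes were negative and the median was -0.25, and on day 2 none passed and the median was 0.04. Whether the share of root in the harvested seedlings moved between flasks was not tested.

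The other falls on both days were in less studied genes. AT5G60680 went from between -0.35 and -0.09 to between -1.01 and -0.87 on day 1, and from between 0.09 and 0.31 to between -1.17 and -0.56 on day 2. It fell by 0.73 ± 0.15 (adjusted p = 0.0018) and by 1.14 (adjusted p = 2.91e-05), and by 60 min it lay between -0.26 and 0.17. RAV2 (AT1G68840), an AP2/B3 repressor also called TEM2, fell by 0.53 ± 0.16 (adjusted p = 0.0326) and by 0.71 (adjusted p = 0.0307), and both calls held in 3 of the 12 fits that lacked 1 array. All 6 arrays were above 0 again at 60 min. AT5G03230 fell by 0.78 and 0.76 and AT4G05070 by 0.59 and 0.69 on the 2 days. A probe set shared by AT1G05650 and AT1G05660 fell by 1.14 and 0.98, and one shared by AT3G22968 and AT3G22970 fell by 0.72 and 0.70. In the shared probe sets the genes cannot be told apart.

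**Figure D3:**
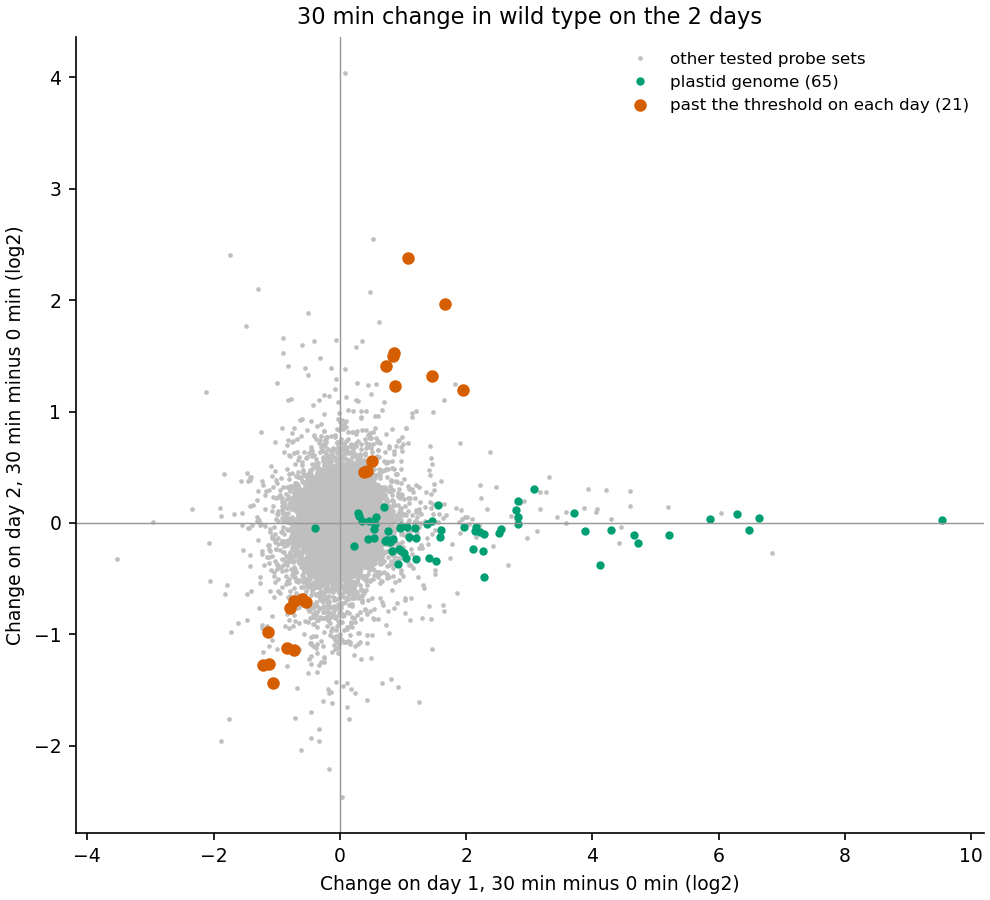
Log2 change at 30 min on day 1 (horizontal axis) against that on day 2 (vertical axis), 1 point per tested probe set, 16129 in all. Orange marks the 21 probe sets that passed on each day with the same sign, and green the 65 tested probe sets of the plastid genome, which spread along the day 1 axis to 9.54 while staying near 0 on day 2.

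In 11 lists of stress and handling genes, 9 of 128 tested entries passed in the mean of both days (7.03%, beside 3.87% of all tested probe sets), 6 higher and 3 lower. The low-oxygen list was not among the 11, and in the same mean 4 of its 14 tested genes rose and 2 fell. Of 12 touch and calcium-binding genes tested, TCH3, a calmodulin-like gene raised by touch, was the only one that passed, rising by 0.70 ± 0.16 (adjusted p = 0.00919). None of the 12 passed on day 2. WRKY33, a defence factor, was the only one of 14 WRKY genes that passed in the mean of both days, rising 2.15-fold (log2 change 1.1 ± 0.24, adjusted p = 0.00609). It rose on day 1 by 1.20 (adjusted p = 0.0221), and on day 2 its change of 1.01 did not pass (adjusted p = 0.222). The zinc-finger repressors ZAT10 and SZF1 rose in the mean of both days by 1.05 ± 0.24 (adjusted p = 0.00896) and 0.65 ± 0.12 (adjusted p = 0.00145), 2 of 9 in their list. None of the 9 passed on day 2. ZAT10 lay between 0.57 and 1.50 in the 6 treated arrays and between -0.63 and 0.38 in the 6 untreated. AT1G19020 also changed about equally, by 1.15 on day 1 (adjusted p = 0.00756) and 0.99 on day 2, where it did not pass (adjusted p = 0.0957).

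RBOHD, the oxidase behind the oxidative burst, rose by 0.50 ± 0.14 (adjusted p = 0.0291), 1 of 7 in the kinase and oxidase list. Of 14 ERF and DREB factors ERF6 rose by 0.72 ± 0.20, and TINY and RAP2.4 fell by 0.56 and 0.33. On day 1 none of the 14 rose and 2 fell, and on day 2 none passed. RD26, a NAC factor of drought and abscisic acid, fell by 0.87 ± 0.16 (adjusted p = 0.00127), 1 of 14 in its list, of which none passed on day 2. None of 17 jasmonate, 10 heat shock, 9 ethylene, 10 salicylate and defence or 12 xenobiotic response genes passed in the mean of both days or on either day. JAZ10, a jasmonate repressor, changed by 0.61 and 0.66 on the 2 days. These lists' medians ran from -0.17 for heat shock to 0.14 for ethylene. The xenobiotic list, whose genes are raised by compounds foreign to the plant, had a median change of -0.14 on day 1 and 0.36 on day 2. Its median value at 30 min lay below that at 0 min in all arrays of day 1 and above it in all arrays of day 2, with no overlap on either day.

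Auxin response genes gave 4 rises among 18 tested and no fall, beside 2.02% and 1.85% of all tested probe sets. SAUR14 was joined by SAUR63 (0.95 ± 0.25, adjusted p = 0.0269) and by the Aux/IAA repressors IAA3 (0.67 ± 0.15, adjusted p = 0.00759) and IAA1 (0.48 ± 0.13, adjusted p = 0.0291). On single days 3 genes of the list passed on day 1, and SAUR14 alone passed on day 2. The GH3 conjugating enzymes of the list did not pass, with changes between -0.55 and 0.38 on single days, and the list's median was 0.13. Of 8 flavonoid genes DFR and the regulator MYB12 fell in the mean of both days, and none passed on day 2. DFR went from 2.08, 2.51 and 0.27 to between -0.29 and -0.27 on day 1, while 5 of the 6 arrays of day 2 lay between -0.34 and -0.27. Whether these near-equal readings lie at the lower limit of measurement was not tested, so the size of the DFR fall is uncertain.

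Day 1 held rises that day 2 did not. Of 65 tested probe sets of the plastid genome, 57 rose on day 1 and none fell, with a median of 1.41, and none passed on day 2, with a median of -0.07. In the mean of both days 35 of the 65 passed, all of them higher, and none did in the additive model of day and time. In 47 of the 65 the difference between the days passed. The median value of these probe sets was -0.21, -0.52 and -0.62 in the untreated arrays of day 1 and 1.28, 1.08 and 0.94 in the treated ones. It lay between 0.08 and 0.50 in all 6 arrays of day 2, and between -0.39 and -0.13 on day 1 at 60 min. psaA, which encodes a core protein of photosystem I, was the extreme: its 3 untreated arrays of day 1 all read -4.21, and the other 9 of the 12 arrays lay between 3.98 and 5.66. Whether the 3 equal readings lie at the lower limit of measurement was not tested, so the size of the psaA rise is uncertain. In the GR-REV line, grown the same day, the median of the plastid probe sets was likewise low at 0 min, between -0.83 and 0.10, and between 0.81 and 1.24 at 30 min. With all plastid probe sets left out, 23 probe sets passed on each day, all of the 21 among them. That fit left the values of the other probe sets as they were, so it does not show whether they hold part of the plastid shift. The part of the plastid shift in the other day 1 results was not tested.

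A second set of large day 1 rises was in single probe sets of long nuclear genes. One probe set of SPL1 (AT2G47070), a squamosa-promoter-binding factor, read -2.78, -3.18 and -3.20 in the untreated arrays of day 1. It read between 2.78 and 3.03 in the other 9 arrays, a day 1 change of 6.03 ± 0.75 (adjusted p = 2.93e-06) and a day 2 change of 0.09. The other tested probe set of the same gene lay between -0.14 and 0.22 in all 12 arrays and changed by 0.07 on day 1. A probe set of SIZ1 (AT5G60410), a SUMO ligase, likewise went from -1.89, -1.86 and -3.64 to between 1.98 and 2.01, while the gene's other probe set changed by 0.11. The 2 probe sets of one gene thus disagreed, and it was the untreated arrays of day 1 that stood apart. There were 32 single-gene probe sets with a day 1 rise of over 2 on the log2 scale. Their genes had a median length of 5867 bases in the RefSeq annotation, against 2471 over all tested genes, and 75.0% were over 5000 bases long, against 8.56%. For 27 of the genes another probe set was tested: of those 28 probe sets 25 did not pass, 2 rose and 1 fell, with changes from -0.40 to 0.78. Values of the 3′ and 5′ probe sets of the array's control transcripts also count from the untreated wild-type median. Their differences lay between -0.21 and 0.22 in the 12 arrays, as departures from that median and not as 3′ to 5′ ratios. The part of RNA quality in these rises was not tested.

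**Figure D4:**
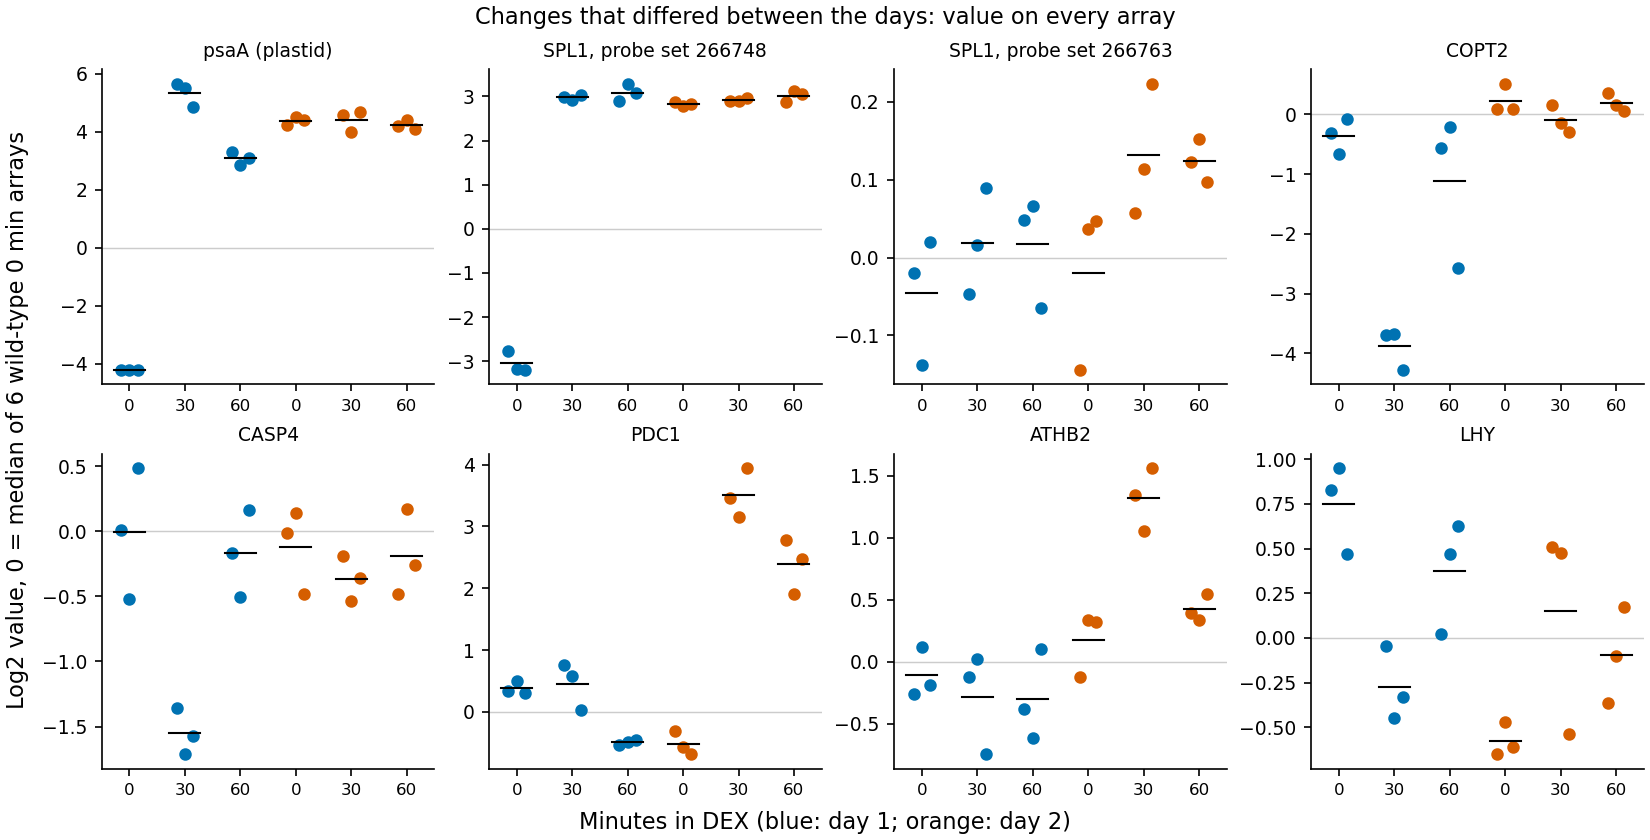
Log2 value relative to the wild-type 0 min median (vertical axis) at 0, 30 and 60 min (horizontal axis) for 8 probe sets. Except for the second SPL1 probe set, which is drawn for comparison, each had a change on 1 day. Day 1 is in blue and day 2 in orange, with 1 point per array and bars at the means of 3. The psaA probe set and one of the SPL1 probe sets are low only in the untreated arrays of day 1, COPT2 and CASP4 are low at 30 min on day 1, and PDC1 and ATHB2 are high at 30 min on day 2.

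Genes of metal uptake fell on day 1. COPT2 (AT3G46900), a copper transporter of roots, stood between -0.67 and 0.51 in all 6 untreated arrays. At 30 min it read -3.70, -3.68 and -4.28 on day 1 and 0.15, -0.15 and -0.29 on day 2. The 11.5-fold fall on day 1 (-3.53 ± 0.47, adjusted p = 8.14e-06) was the largest of that day among all tested probe sets, and the day 2 change of -0.33 did not pass (adjusted p = 0.931). The difference between the days passed (adjusted p = 0.00538). The zinc transporter ZIP2 fell by 2.05 ± 0.33 on day 1, from between -0.76 and -0.08 to between -2.85 and -2.36 (adjusted p = 8.79e-05). IREG2, a metal transporter of the root vacuole, fell by 1.79 ± 0.30 (adjusted p = 0.000145), and YSL2, a carrier of metal chelates, by 1.54 ± 0.24 (adjusted p = 7.12e-05). IRT1, the main iron transporter of roots, fell by 2.95 ± 0.94 (adjusted p = 0.0411) from untreated values of 2.93, 5.26 and 0.52, which overlapped the treated ones of 0.81, -0.46 and -0.50.

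In all, 7 of 24 tested metal genes fell on day 1, and 2 rose, the copper-zinc superoxide dismutases CSD1 (1.42, adjusted p = 0.0226) and CSD2 (1.50, adjusted p = 0.0181), beside 5.13% lower and 4.79% higher over all tested probe sets on that day. On day 2 only IRT2, a second iron transporter, fell, by 1.75 (adjusted p = 0.0171). The day 1 and day 2 medians of the list were -0.46 and 0.04. At 60 min of day 1 COPT2 was at -0.57, -0.21 and -2.57, so 2 of the 3 arrays were back in the range of the untreated ones.

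Genes of the suberin and Casparian strip barrier of the root endodermis fell on the same day. CASP4 (AT5G06200) went from 0.01, -0.52 and 0.49 to -1.36, -1.71 and -1.57, a fall of 1.54 ± 0.26 (adjusted p = 0.000216). FAR4 (AT3G44540), which makes fatty alcohols for suberin, went from 0.36, 0.00 and 0.27 to -1.51, -1.66 and -1.84, a fall of 1.88 ± 0.27 (adjusted p = 1.71e-05). Neither gene's groups overlapped on day 1, and on day 2 their changes of -0.24 and 0.06 did not pass. On day 1, 9 of 16 tested genes of the list fell and 1, KCS20, rose, beside 5.13% and 4.79% of all tested probe sets, and on day 2 none passed. On day 1 the markers of root tissue were also lower in 5 of 12 (2 of them CASP1 and CASP2, members of both lists) with a median of -0.63, and their part in the metal and suberin results was not tested. The difference between the days passed for FAR4, FAR5 and CASP4. The metal and suberin lists, like those of root hairs, cytokinin signalling and turnover, kelch F-box and growth bHLH genes, were chosen after the values had been seen, so their counts are descriptions.

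On day 2, 2 of 14 low-oxygen genes rose, PDC1 and HB1, and ACHT5 fell, beside 0.316% higher and 0.285% lower over all tested probe sets. PDC1 (AT4G33070), pyruvate decarboxylase of ethanol fermentation, stood at -0.31, -0.57 and -0.69 before and 3.45, 3.15 and 3.94 after DEX on day 2. On day 1 it went from 0.33, 0.50 and 0.31 to 0.76, 0.58 and 0.03, and the groups overlapped. The day 2 rise was 16.5-fold (4.04 ± 0.46, adjusted p = 1.9e-06), the day 1 change was 0.08 ± 0.46 (adjusted p = 0.953), and the difference passed (adjusted p = 0.000754). At 60 min PDC1 remained between 1.91 and 2.78 on day 2 and lay between -0.53 and -0.45 on day 1. HB1, a non-symbiotic haemoglobin, rose on day 2 by 1.64 ± 0.32 (adjusted p = 0.0105) to 1.05, 0.84 and 1.19, and changed by -0.42 on day 1 (adjusted p = 0.472).

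The low-oxygen genes did not all move together. Of 14 tested, PDC1, SRO5, PCO1 and HRE1 rose in the mean of both days, and LBD41 and ACHT5 fell. LBD41, one of the most used markers of low oxygen, fell by 1.11 ± 0.23 (adjusted p = 0.00341), with changes of -1.13 on day 1 (adjusted p = 0.0229) and -1.10 on day 2 (adjusted p = 0.112). ADH1, alcohol dehydrogenase, changed by -0.37 and 0.75 on the 2 days and did not pass. The list's median was -0.02 on day 1 and 0.79 on day 2, and its 4 rises in the mean became as few as 1 when a single array was left out.

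Other changes of day 2 were in ATHB2 (AT4G16780), a class II homeodomain-leucine zipper gene of shade responses, and in the kinase gene RIPK. ATHB2 went from -0.12, 0.33 and 0.32 to 1.35, 1.06 and 1.56 on day 2 (1.14 ± 0.20, adjusted p = 0.00248). On day 1 it went from -0.26, 0.12 and -0.19 to -0.12, 0.02 and -0.75, with overlap, and the difference between days passed (adjusted p = 0.00685). RIPK rose by 1.26 ± 0.12 on day 2 (adjusted p = 5.88e-08) and changed by 0.27 on day 1 (adjusted p = 0.161). CGA1, a GATA factor that responds to cytokinin and light, rose on day 2 by 2.08 ± 0.30 (adjusted p = 0.000135). It changed by 0.47 on day 1 (adjusted p = 0.359), and the difference passed (adjusted p = 0.0288). Among the falls of day 2, RAV1, a relative of RAV2, fell by 1.34 ± 0.18 (adjusted p = 4.28e-05), and XTH26, a wall enzyme of hairs, by 2.21 ± 0.47 (adjusted p = 0.0171).

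In 3 of 16 tested clock genes, LHY, CCA1 and PRR3, the change differed between the 2 days, beside 3.45% of all tested probe sets, and the other 13 did not pass. LHY, a morning factor, read 0.83, 0.95 and 0.47 before and -0.04, -0.45 and -0.33 after DEX on day 1, a fall of 1.02 ± 0.24 (adjusted p = 0.00584). On day 2 it read -0.65, -0.47 and -0.61 before and 0.51, 0.47 and -0.54 after, a change of 0.73 that did not pass (adjusted p = 0.207). Its partner CCA1 fell on day 1 by 0.72 and changed by 0.63 on day 2, where it did not pass. For both genes the difference between the days passed (adjusted p = 0.00305 and 0.0141), and likewise for PRR3, which rose by 1.34 on day 1 and changed by -0.59 on day 2. Of the 16 tested clock genes none passed in the mean of both days with the probe set used for the list, and a second probe set of RVE8 did. The labels used here give no hour of sampling.

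The lines give the same contrast in other flasks, with the fusion protein present. In the GR-REV line, grown on day 1, 2749 probe sets (17.0%) passed at 30 min, 1344 higher (8.33%) and 1405 lower (8.71%). In the KAN1-GR line, grown on day 2, 1034 passed (6.41%), 406 higher (2.52%) and 628 lower (3.89%). Neither change shares an array with those of wild type. Of the 773 probe sets that rose in wild type on day 1, 47.3% also rose in GR-REV, and of the 828 that fell, 47.3% also fell. In GR-REV 2 of those rises and 9 of those falls passed with the opposite sign. Of the 51 rises and 46 falls of wild type on day 2, 27.5% and 30.4% recurred in KAN1-GR. There, 8 of the 51 rises and none of the 46 falls passed with the opposite sign.

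Of the 21 probe sets that passed on each day in wild type, 7 also passed in GR-REV with the same sign and none with the opposite sign. In KAN1-GR 8 passed with the same sign and 2 with the opposite sign. ARR7 rose in both lines, by 1.09 (adjusted p = 0.00068) and 1.72 (adjusted p = 1.03e-06). DJC66, MYB4 and KMD3 also rose in both, and RAV2 fell in both. CRF2 and CYP81F2, which rose in wild type on both days, changed by between 0.03 and 0.40 in the lines and passed in neither. The 2 opposite calls were BEE1 and SAUR14 in KAN1-GR, at -1.10 (adjusted p = 0.0023) and -1.20 (adjusted p = 3.74e-09). The root hair gene MRH6 fell by 1.24 in KAN1-GR (adjusted p = 0.00504), and in GR-REV, whose root hair genes had a median value between -1.82 and -1.03 already before DEX, its change of -0.36 did not pass.

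**Figure D5:**
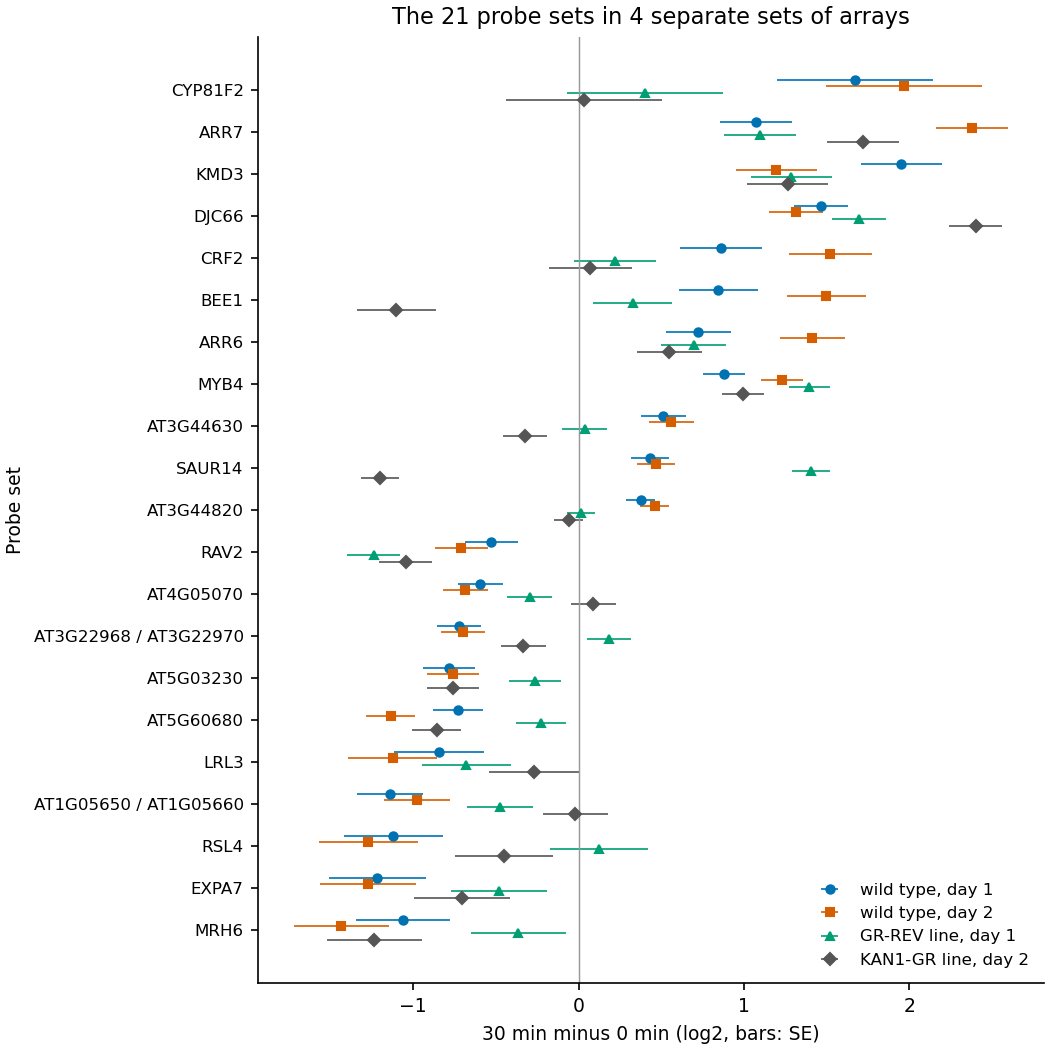
Log2 change from 0 to 30 min ± SE (horizontal axis) of the 21 probe sets that passed on each day in wild type (vertical axis), in wild type on day 1, wild type on day 2, GR-REV and KAN1-GR. DJC66, MYB4 and ARR7 lie above 0 in all 4 series, and BEE1 and SAUR14 lie below 0 in KAN1-GR only.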

How the data were processed

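Transcripts of 42 ATH1 arrays were measured, of which 12 carry the comparison. The values, as deposited by the authors, are on a log2 scale (the base was taken from the method) and come from GCRMA, per the submitters' processing notes, with no version given. In each of 22810 probe sets the median over the 6 untreated wild-type arrays is 0, as a check of the values showed, so levels cannot be compared between probe sets. A second table held the same values, the locus of each probe set and, for 16164 of them, deposited p-values from a two-way ANOVA run by the authors, a unit other than expression that served only as a filter. Less 35 control probe sets, 16129 were tested, 15138 with 1 gene, 710 with several and 281 with none. Of the first, 15091 matched the RefSeq table of assembly TAIR10.1, used for names and gene lengths only. The design assumed levels for its filter and a spread that follows the mean level; the filter above and a common spread replaced them.

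A group-mean model was fitted to all 42 arrays (14 groups of 3) with limma 3.58.1 in R 4.3.3, with 28 residual degrees of freedom. Tests were moderated and two-sided, with Benjamini-Hochberg adjustment within each comparison over everything tested, and 0.05 was the threshold. The script was tested on simulated data. Named genes were those called on each day, up to 4 members of each list by adjusted p, the 5 highest and 5 lowest differences between days, the 3 most alike large rises, and further list members as examples of no change. The other genes named, among them COPT2's relatives, the endodermal genes, RIPK, CGA1, LRX1 and the second probe sets, were chosen after their values were seen. The comparison and the 20 gene lists (326 entries) were chosen with earlier results of these data known, and 6 lists (121 entries: root hair, cytokinin signalling and turnover, kelch F-box, growth bHLH, metal, suberin) after the values were seen. Where a gene of a list had several probe sets, as 2 did, 1 was used. Same-numbered flasks at 0 and 30 min were not taken as pairs, since the correlations of their deviations from the group means were 0.238, 0.0579 and 0.136 for replicates 1 to 3 and 0.423, 0.0412 and 0.639 for replicates 4 to 6, not all over 0.1. All of these were positive, while between flasks of different numbers on the same day the correlations ran from -0.603 to 0.547. A pairing of some flasks is thus not excluded, and a fit with replicate number as a block is given below. No sequence is shown, since none was used here.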

Additional observations from a re-analysis of the deposited data

Results flagged for a closer look

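In 557 probe sets the change of wild type at 30 min differed between the days in a test of the difference itself. The 5 most negative and 5 most positive differences among probe sets of 1 gene, as day 1 change less day 2 change on the log2 scale, were singled out by that test. The negative ones were PDC1 at -3.97, ELIP2, an early light-induced protein of plastids, at -3.39, SAG29, a sugar transporter of senescing tissue, at -3.25, COPT2 at -3.20 and GBSS1, a starch synthase, at -2.55. COPT2 fell on day 1, and PDC1, ELIP2 and GBSS1 rose on day 2, while SAG29 passed on neither day. ELIP2, SAG29 and GBSS1 had replicate 6 of day 2 at 30 min below its group, at -0.74, -0.25 and -0.90 against at least 0.85 in the other 2 arrays. The positive ones were single probe sets of SPL1 at 5.94, AT1G01320 at 5.05, SIZ1 at 4.50, AT2G07360 at 4.44 and AT4G01290 at 4.31. Each of these 5 genes has a second tested probe set, whose differences lay between -0.32 and 0.11.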

How the results depend on the processing

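Median centring, a test without the filter, a robust spread, a spread tied to the mean, the 12 or 21 wild-type arrays alone and leaving out the plastid probe sets kept the counts of calls over all probe sets within 1.5 times, and no named gene changed its direction with a call. The members moved more than the counts. Of the 21 called on each day, 10 were kept with the 12 wild-type arrays alone and 16 with the 21 wild-type arrays. A spread tied to the mean kept 15 of them, and the test without the filter 19. Quantile normalisation gave 1129 calls in the mean of both days, 1074 on day 2, 2060 between days, 870 in GR-REV and 84 on each day, 18 of the 21 among them. Low-oxygen genes then numbered 9 higher and 3 lower on day 2, and 7 and 3 in the mean. Array weights gave 3208, 2733 (day 1), 3869 (day 2), 3317 (between days), 2019 (KAN1-GR) and 340 (each day). A 2-fold minimum gave 107, 273, 42, 247, 518 (GR-REV), 344 (KAN1-GR) and 7. An additive model of day and time, whose spread takes in the differences between days, gave 91 for the mean. Without both arrays numbered 6, an alternative added after seeing the data, day 2 gave 56 and each day 11. Leaving out each array in turn gave 377 to 757 in the mean, 843 to 1723 on day 1, 24 to 306 on day 2, 314 to 888 between days, 9 to 31 on each day, 2651 to 2922 in GR-REV and 998 to 1114 in KAN1-GR. The lowest day 1 count was without treated replicate 3, and counts of 977, 1017 and 1007 were without untreated replicate 2 and treated replicates 1 and 2. On day 2 counts were 24, 34, 39 and 61 without treated replicate 4, untreated replicates 5 and 6 and treated replicate 5, and 306 without treated replicate 6. The mean gave 377, 384 and 409 without untreated replicate 5, treated replicate 4 and treated replicate 3. The count between days was 314, 330, 336 and 354 without treated replicates 4 and 3, untreated replicate 6 and treated replicate 5, and 888 without treated replicate 6. The count on each day was 9, 10 and 12 without treated replicate 4 and untreated replicates 6 and 5. ARR7, DJC66, MYB4 and AT5G60680 kept both calls whichever array was left out. With replicate number as a block the counts were 884, 1757, 126, 720 and 24 on each day, 11 of the 21 among them. Under the block RSL4, EXPA7, LRL3, CRF2, SAUR14, RAV2, AT3G44630, AT3G44820, AT4G05070 and the probe set shared by AT1G05650 and AT1G05660 lost a call. Under a spread tied to the mean RSL4, EXPA7, LRL3, MRH6, KMD3 and DJC66 lost one. In the mean, array weights gave 8 type-A genes higher and 1 lower, 14 hair genes lower and 8 low-oxygen genes higher, and the additive model 2, 3 and 0. The cause of these shifts was not tested. No depth is known for arrays; signal over background was not used here, and 3 arrays per group limit the smaller changes.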

Other observations

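Some genes outside the lists changed on 1 day. AT5G15780 read between -0.83 and -0.51 in the untreated arrays of day 1 and 2.6, 3.15 and 2.87 at 30 min, a rise of 3.58 ± 0.23 (limma adjusted p = 5.51e-12), while its 6 arrays of day 2 all lay between 0.51 and 1.16. It also rose in the GR-REV line by 2.92. On day 2, TIN1, a gene induced by tunicamycin, fell by 2.46 (adjusted p = 0.0322), the arabinogalactan protein gene FLA6 by 1.85 (adjusted p = 0.00911) and BT2, a BTB-domain scaffold gene, by 1.59 (adjusted p = 0.0146). AT5G48430 passed on both days with opposite signs: it fell by 0.90 on day 1 from between 1.49 and 2.06, and rose by 1.53 on day 2 from between -1.71 and -1.49. Its treated arrays lay between 0.61 and 1.15 on day 1 and between -0.84 and 0.34 on day 2. These genes were chosen after their values were seen.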
